A study of Oryza sativa with 12 samples.

Results

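Expression at dawn was compared with expression at dusk in rice seedlings that had just been chilled. The 6 libraries are CT24 and CT12, 3 each, out of the 12 libraries of the series, and they were chosen by their labels alone. All were made from above-ground parts of cultivar 93-11 (Oryza sativa ssp. indica), grown at 28 °C with days of 12 h light and nights of 12 h for about 10 days, to the 3-leaf stage, and harvested on day 11. CT12 plants spent zeitgeber time (ZT, hours since lights-on) 8 to 12 at 13 °C and were taken at ZT12, the end of the day. CT24 plants spent ZT20 to ZT24 at 13 °C and were taken at ZT24, the end of the night. Both groups therefore shared 4 h of chilling. NT12 and NT24, 3 libraries each, were kept at 28 °C and harvested at the same times. No transgene or mutant was used, a library pooled 5 plants, and the sources used here do not say whether the 3 repeats of a group came from separate pots. If they did not, the p-values measure a spread that may be partly technical. The light conditions during the 4 h of chilling are not given either. Of the 40424 identifiers counted, 24700 passed a filter on low counts and were tested.

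In a plant leaf a large part of the transcripts cycles each day. The circadian clock is built from factors that repress one another in turn: in Arabidopsis, CCA1 and LHY peak near dawn, the pseudo-response regulators follow through the day, and TOC1 and the evening complex act near dusk. Photosynthesis, starch breakdown and growth genes follow this clock and the light. Cold adds its own programme, in which DREB1 (CBF) transcription factors are early regulators, and in Arabidopsis the clock sets how strongly a cold pulse induces them at a given hour. Rice comes from warm climates and is injured by temperatures well above freezing. The counted identifiers carry no gene names, and none of the 40424 matched the reference gene table, so which of the cycling genes belong to the clock, to photosynthesis or to the cold programme is not given here. The labelled tissue could not be checked against marker genes for the same reason.

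The 6 libraries held between 42966604 and 52762123 counts, at most 44275505 in CT12 and at least 47437846 in CT24. They separated by time of day along the first principal component, which held 63.4% of their variance, with CT12 between -132 and -66.3 and CT24 between 98.4 and 110.5. The CT12 libraries differed more among themselves: their common biological coefficient of variation was 0.405, against 0.259 in CT24. The median gene's SD of log2 CPM between libraries was 0.34 in CT12 and 0.23 in CT24. CT12 replicate 2 stood apart from the other CT12 libraries, with 667 genes holding 50% of its counts against 481 and 512. In the CT24 libraries that number was between 896 and 981. It did not overlap with CT12, and the exact permutation p was 0.1, two-sided, the smallest that 3 against 3 allows (adjusted p = 0.14 over 7 library measures).

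After chilling, 10397 genes (42.1% of those tested) differed between dawn and dusk, nearly as many in each direction. CT24 was higher for 5018 genes (20.3%) and CT12 for 5379 (21.8%) (quasi-likelihood test of edgeR, adjusted p below 0.05 after Benjamini and Hochberg). The spread was estimated from all 12 libraries, and a fit on CT12 and CT24 alone called 3861 and 4449. The 3 libraries at one time did not overlap with the 3 at the other for 4850 of the 5018 and for 5098 of the 5379. Over all tested genes such separation was seen for 25.1% with CT24 above and for 24.5% with CT12 above. In RNA from whole shoots, fewer cells of a type and less RNA per cell cannot be told apart. The near-even split depends on the scaling. It was seen with TMM (trimmed mean of M values), which takes most genes as unchanged. RLE scaling (relative log expression) gave 4930 genes higher in CT24 and 5457 higher in CT12, and upper-quartile scaling gave 5534 and 4992. Scaling by total counts alone gave 7754 genes higher in CT24 and 3534 higher in CT12. It moved the median log2 difference of all genes from 0.03 under TMM to 0.34. Calls that held under each of the 4 constant scalings tried were 4930 towards dawn and 3534 towards dusk. Without CT12 replicate 2, the calls were 5833 and 5892.

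**Figure D1:**
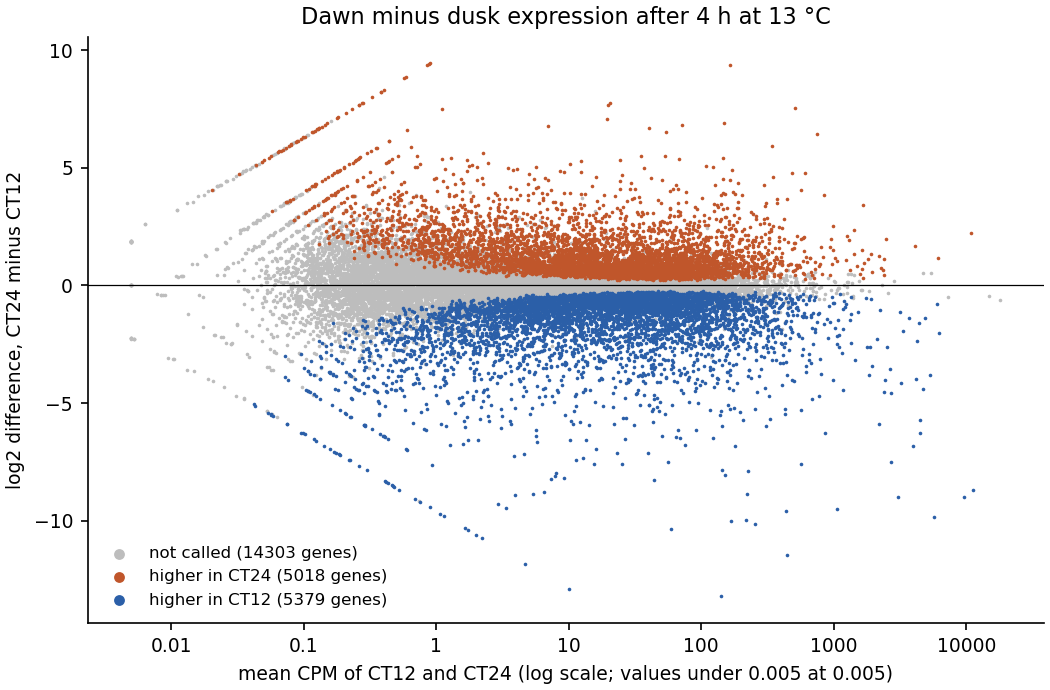
Each point is a gene, placed by its mean CPM (counts scaled to library size, log scale) in CT12 and CT24 and by its log2 difference, CT24 minus CT12. Coloured points are the 5018 dawn-high (CT24) and the 5379 dusk-high (CT12) called genes; the diagonal streaks at the left are genes with no or very few counts in one group.

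The typical called difference was about 2-fold, and beyond 32-fold more genes were higher at dusk. The median fold was 2.13 for genes higher in CT24 and 2.22 for genes higher in CT12. The 10% with the largest differences in each list began at 7.23-fold and 9.74-fold. Between 2-fold and 4-fold there were 1667 genes higher in CT24 and 1719 higher in CT12. Beyond 32-fold there were 103 and 191. At least 8-fold differences numbered 441 and 645. The median level in the lower group was 0.138 CPM in CT12 for the 441 and 0.555 CPM in CT24 for the 645. The size of many of these differences thus rests on few counts. Total counts turned the order at 2-fold and 8-fold, to 4160 and 2191 and to 604 and 523, but not beyond 32-fold, with 131 and 160. At 2-fold the order also turned with upper-quartile scaling (2944 and 2882) and without CT12 replicate 2 (3440 and 3356). A test against a 2-fold difference itself (edgeR's glmTreat) called 2990 genes (12.1% of those tested), 1272 higher in CT24 and 1718 higher in CT12. This is fewer than the 5821 genes (23.6% of those tested) that were called and also had a fitted difference of at least 2-fold.

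**Figure D2:**
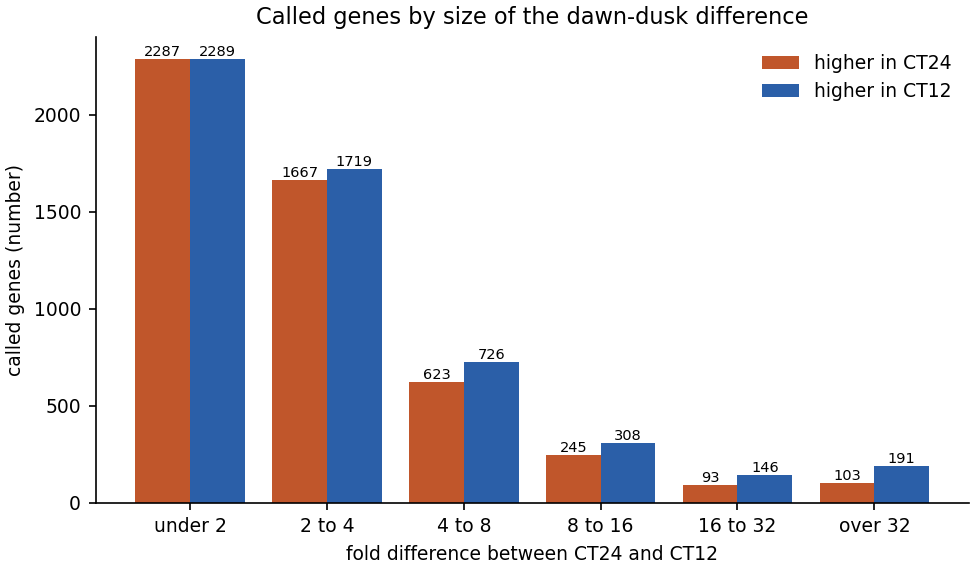
Bars count the called genes in classes of fold difference between CT24 and CT12 (edgeR, adjusted p below 0.05). Below 4-fold the 2 directions are of like height, while beyond 32-fold 103 genes are higher in CT24 and 191 higher in CT12.

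The most extreme of the abundant genes went from a few CPM to levels more than 100-fold away. They were taken from 1403 genes that were called, did not overlap between the groups, averaged at least 100 CPM over the chilled libraries and reached at least 1 CPM in each of them, so that the smaller value was also measured. OsR498G0204548800.01 was at 5.30, 4.71 and 6.51 CPM in the CT12 libraries and at 935, 1026 and 1086 CPM in CT24. Every CT24 library was far above every CT12 library, and the log2 difference was 7.53 (SE 0.19; adjusted p = 1.02e-09 by edgeR). OsR498G0205002700.01 was at 2.13, 2.34 and 3.0 CPM in CT12 and at 270.4, 312 and 303 CPM in CT24. The groups were again far apart, and CT24 exceeded CT12 by 6.89 on the log2 scale (SE 0.19; adjusted p = 2.43e-09 by edgeR).

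On the dusk side the most extreme of these genes carried close to 1% of a CT12 library. OsR498G0714482300.01 was at 12182, 9118 and 12688 CPM in CT12, or 0.893%, 0.797% and 0.955% of the counts. In CT24 it was at 13.7, 15.8 and 7.47 CPM. The log2 difference was -9.85 (SE 0.65; adjusted p = 4.54e-07 by edgeR), with no overlap of the groups. OsR498G0100279000.01 was at 2169, 2094 and 2030 CPM in CT12 and at 2.43, 2.89 and 3.28 CPM in CT24. Its libraries lay close together within each group, and its log2 difference was -9.51 (SE 0.29, edgeR adjusted p = 3.31e-09).

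These 4 genes had the same direction at 28 °C, and for 3 of them the difference there was larger. The rule for naming asked for at least 1 CPM in every chilled library and set no such floor at 28 °C. It thus limited the difference after chilling and not the one at 28 °C, so this floor favours a larger difference at 28 °C. The genes were also picked for the largest differences after chilling, which favours the opposite. OsR498G0204548800.01 differed by 12.48 on the log2 scale between NT24 and NT12, against 7.53 after chilling; its mean was 0.124 ± 0.0286 CPM in NT12 and 5.51 ± 0.918 CPM in CT12 (SD, n = 3). OsR498G0714482300.01 differed by -13.22 at 28 °C and OsR498G0100279000.01 by -11.54. Their means at dawn were 0.732 ± 0.697 and 0.473 ± 0.184 CPM in NT24, and 12.3 ± 4.32 and 2.87 ± 0.424 CPM in CT24 (SD, n = 3). For all 3 the dependence on temperature was called, at edgeR adjusted p of 2.56e-07, 0.00451 and 0.000817. OsR498G0205002700.01 differed by 6.58 at 28 °C and by 6.89 after chilling. The difference of those values was 0.31 (SE 0.22, edgeR adjusted p = 0.344).

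**Figure D3:**
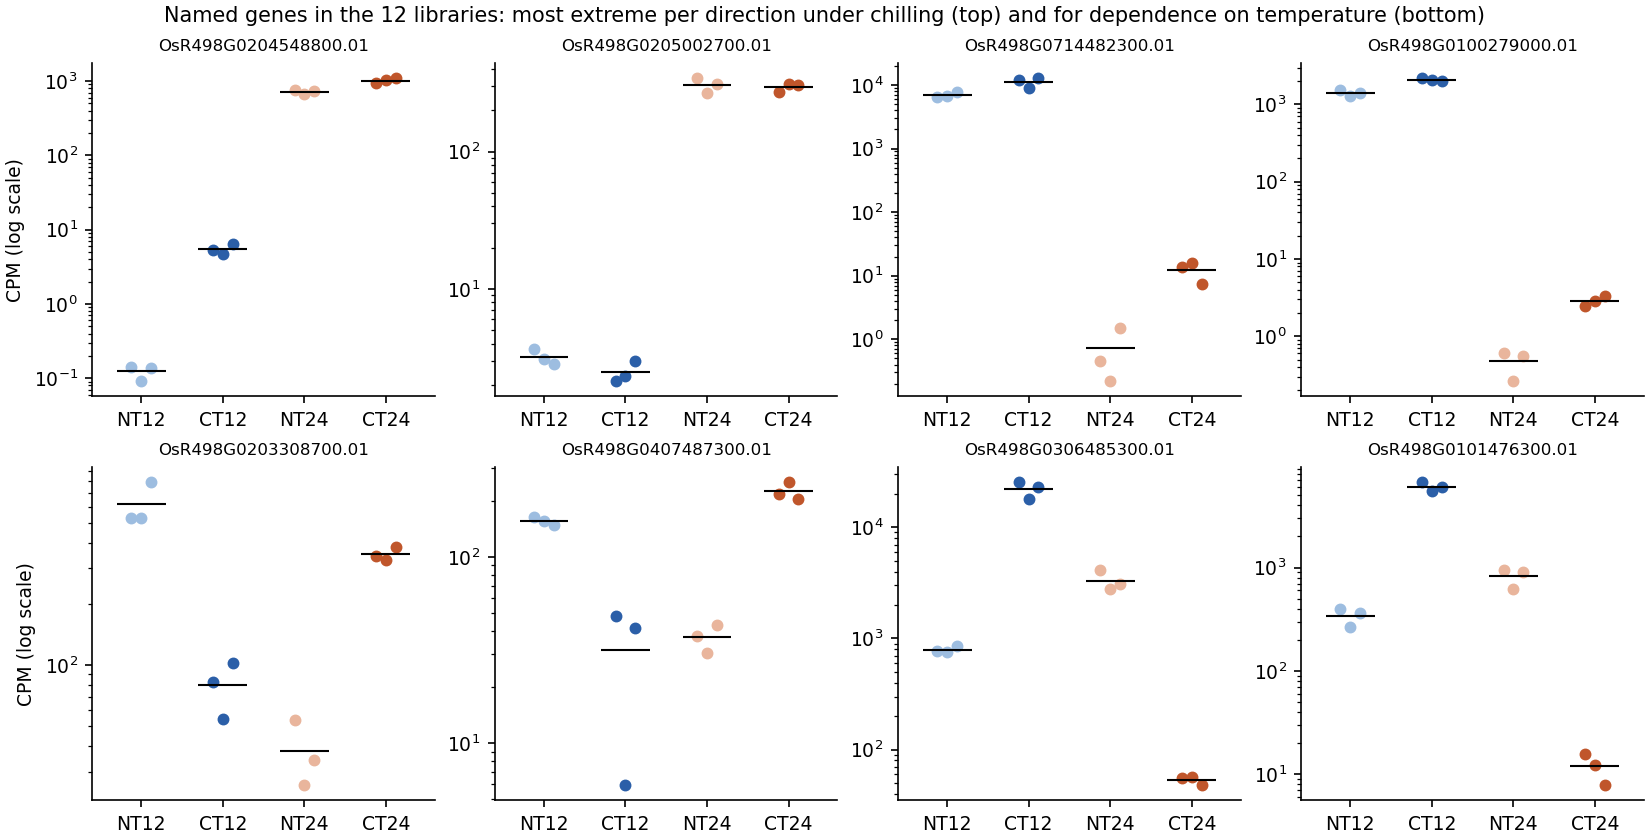
CPM (log scale, scales differ between panels) of the 8 genes described, with 1 point per library and a line at the mean of each group of 3. The top row holds the 2 most extreme genes per direction after chilling, and the bottom row the 2 most extreme per direction for dependence on temperature, each among the abundant genes that met the rule for naming; the latter turned over between temperatures.

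Few genes were counted at one time of day only. In 4 genes no CT24 library had a count while each CT12 library had at least 100, and in no gene did the reverse hold. The 4 were OsR498G0102419700.01, OsR498G0305767200.01, OsR498G1119437500.01 and Novel01181, named after their values were seen. Their means in CT12 were between 3.98 and 20.03 CPM, and with a floor of 3 counts over the CT24 libraries (0.0204 CPM) they were at least 195.5-fold to 983-fold lower at dawn, a bound that covers counting error only. At 28 °C all 4 were also called lower at dawn, and 3 of them had no count in NT24 either. Only OsR498G0102419700.01 was well above the floor in NT12, at 9.51, 10.23 and 10.27 CPM. The others were low there too. Novel01181 was at 0.25, 0.061 and 0.077 CPM in NT12, and OsR498G0305767200.01 at 0.16, 0.091 and 0.046 CPM. OsR498G1119437500.01 was at 0.19, 0.29 and 0.31 CPM in NT12. With any count in the other group, 105 tested genes had no count in CT12 and 65 had none in CT24. Every CT24 library was deeper than every CT12 library. The floor of 3 counts over the group was 0.0293 CPM in CT12 and 0.0204 CPM in CT24. The part of depth in the 105 and 65 was not tested.

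The share of genes called rose with abundance. CPM is not corrected for transcript length, for which the files give no value, so the classes also reflect length. Of the 2184 genes above 100 CPM in the mean of the chilled libraries, 663 were higher in CT24 and 797 higher in CT12, or 66.8% together. Of the 5180 genes under 1 CPM, 509 and 387 were called, or 17.3%. The median SE of the log2 difference was 0.81 under 1 CPM, 0.30 from 1 to 10, and 0.16 both from 10 to 100 and above 100 CPM. The median log2 difference was -0.10 above 100 CPM, 0.01 between 10 and 100, 0.03 between 1 and 10, and 0.22 under 1 CPM. Total-count scaling raised all 4 medians and gave 924 genes higher in CT24 and 594 higher in CT12 above 100 CPM. Cyclic loess, which removes trends with abundance, was run with limma's voom and not with edgeR's test. It gave 703 and 808 above 100 CPM, and 430 and 549 under 1 CPM, where the direction of the split turned. Normalization and test changed together, and their parts in this turn were not told apart.

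**Figure D4:**
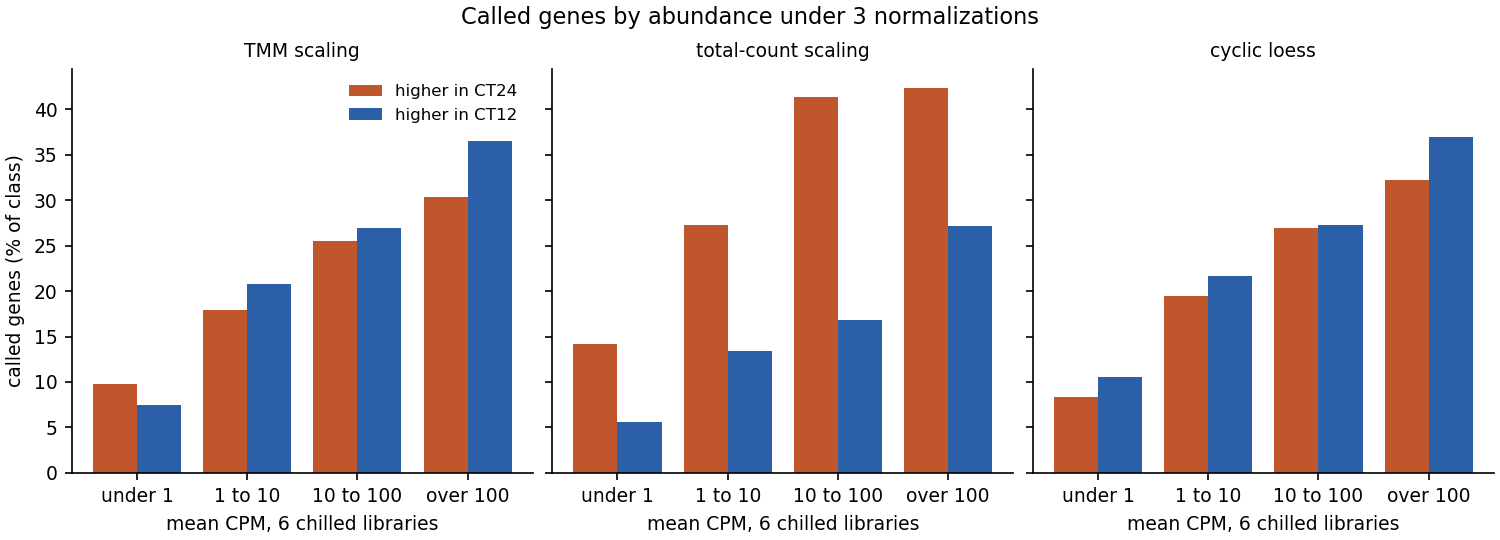
Bars give the percentage of genes called in each direction within classes of mean CPM over the 6 chilled libraries, under 3 normalizations. Cyclic loess was run with limma's voom, the others with edgeR. Above 100 CPM the blue bar (higher in CT12) is the taller with TMM and cyclic loess and the shorter with total counts.

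The transcripts that fill a library were partly different ones at dusk and at dawn. The 100 genes with the highest mean CPM in CT12 and the 100 in CT24 shared 48, and the 10 highest shared 2. Of the CT12 list, 68 were called dusk-high and 12 dawn-high, with a median log2 difference of -1.45. Of the CT24 list, 52 were dawn-high and 16 dusk-high, with a median of 0.50. Over all tested genes 21.8% were called dusk-high and 20.3% dawn-high. Of the 2184 genes above 100 CPM, 797 were dusk-high and 663 dawn-high. The top 100 lists were chosen by level in the same libraries, so their directions are a description. Together the 100 most abundant genes of each library held between 27.3% and 32.3% of the counts in CT12 and between 21.3% and 22.9% in CT24. The 3090 genes called at least 2-fold higher in CT12 held between 37.9% and 40.0% of the counts of each CT12 library and between 8.70% and 9.18% of each CT24 library. The 2731 genes called at least 2-fold higher in CT24 held between 22.1% and 24.2% of the CT24 counts and between 5.44% and 5.59% of the CT12 counts. Both sets were chosen by their difference in these libraries, so the direction of the shares follows from the choice.

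Under TMM scaling, more of the genes called after chilling than not were called in the same direction in plants kept at 28 °C. There, 10897 genes (44.1% of those tested) differed between NT24 and NT12, 23.2% higher in NT24 and 20.9% higher in NT12. The 2 comparisons share no library. Of the 10397 genes called after chilling, 6165 (59.3%) were called in the same direction at 28 °C, 3043 higher at dawn and 3122 higher at dusk. With total counts the same-direction genes were 5068 of 11288 called, or 44.9%. Another 623 were called in the opposite direction, and 3609 were not called at 28 °C. Across the 24700 genes the log2 differences at both temperatures gave a Pearson coefficient of 0.56 and a Spearman coefficient of 0.52, and a Pearson coefficient of 0.73 over the 2184 genes above 100 CPM. These coefficients are across genes of one set of libraries, which are not independent, and no p is given for them. The median absolute log2 difference of all genes was 0.62 after chilling and 0.64 at 28 °C.

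The time difference itself depended on temperature for 5486 genes (22.2% of those tested; interaction term, edgeR's quasi-likelihood test). It was more positive, that is shifted towards dawn, after chilling for 2283 genes (9.24%) and shifted towards dusk for 3203 (13.0%). Upper-quartile scaling turned this split to 3283 and 2446, and total counts turned it to 9279 and 1312. The median interaction of all genes went from -0.01 under TMM to 0.18 and 0.73 with those scalings. Of the 3609 genes called after chilling and not at 28 °C, the dependence on temperature was called for 1369, so for the other 2240 a difference between temperatures was not shown. Without CT12 replicate 2, the library that stood apart, 7124 genes were called for dependence on temperature.

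Among genes with the same called direction at both temperatures, the difference was more often smaller than larger after chilling where temperature mattered. For the 3043 dawn-high genes it was called smaller for 629 and larger for 198, and for the 3122 dusk-high genes it was called smaller for 518 and larger for 379. For the dawn-high genes total counts turned this to 358 smaller and 538 larger, of 2317, while upper-quartile scaling and cyclic loess kept the order, with 536 and 254, and 516 and 221. For the dusk-high genes the order held under these 3 alternatives. The dependence was not called for 4441 of the 6165.

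**Figure D5:**
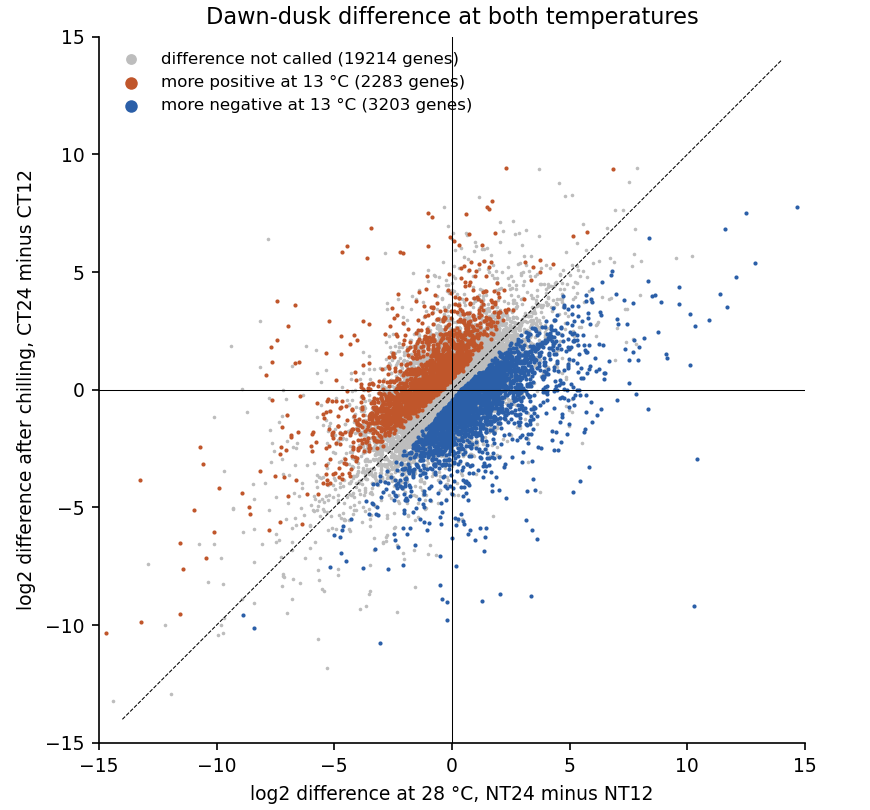
Each point is a gene, with its log2 difference at 28 °C (NT24 minus NT12) on the horizontal axis and after chilling (CT24 minus CT12) on the vertical axis; the dashed line marks equal differences. Coloured points are the 2283 genes shifted towards dawn and the 3203 shifted towards dusk by the interaction test, and the upper left and lower right parts hold genes whose order turned over.

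Some genes had opposite orders of dawn and dusk at the 2 temperatures. Genes that were dusk-high after chilling and dawn-high at 28 °C numbered 442, and those with the reverse order numbered 181. In 167 of these 623 both differences were at least 2-fold. The group medians over the 442 genes were 67.1 CPM in CT12 and 35.5 in CT24, against 23.2 in NT12 and 47.1 in NT24. Those over the 181 genes were 11.0 CPM in CT12 and 18.6 in CT24, against 15.7 in NT12 and 8.89 in NT24. Total counts turned these numbers to 160 and 1286, so which reversal is the more frequent depends on the scaling.

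OsR498G0306485300.01 had the most negative dependence on temperature among the 778 abundant genes that met the rule for naming. It was at 25501, 17958 and 23193 CPM in CT12 and at 55.9, 56.9 and 48.1 CPM in CT24. At 28 °C the order was the opposite, with 777, 751 and 860 CPM in NT12 and 4098, 2761 and 3061 CPM in NT24. The groups do not overlap at either temperature, and the log2 difference went from 2.05 at 28 °C to -8.70 after chilling (interaction -10.75, SE 0.33, edgeR adjusted p = 1.05e-08). OsR498G0101476300.01 had the same order of the 4 groups. It was at 6687, 5489 and 5983 CPM in CT12 and at 15.8, 12.3 and 7.89 CPM in CT24, against 393, 266 and 362 CPM in NT12 and 948, 620.0 and 914 CPM in NT24. Its log2 difference went from 1.28 to -8.98 (interaction -10.26, SE 0.43, edgeR adjusted p = 8.12e-08).

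The reverse order, dusk-high at 28 °C and dawn-high after chilling, was found in OsR498G0203308700.01 and OsR498G0407487300.01, which had the most positive dependence on temperature among those 778 genes. OsR498G0203308700.01 was at 82.4, 54.15 and 103 CPM in CT12 and at 342, 328 and 379 CPM in CT24, a log2 difference of 2.13. In NT12 it was at 527.5, 530.0 and 792.5 CPM and in NT24 at 53.9, 25.8 and 34.1 CPM, a log2 difference of -4.02. The interaction was 6.16 (SE 0.44, edgeR adjusted p = 2.71e-06). OsR498G0407487300.01 was at 47.9, 5.96 and 41.55 CPM in CT12 and at 217, 251.5 and 205 CPM in CT24. CT12 replicate 2 was thus far below the other CT12 libraries, and CT24 was above all of them. In NT12 it was at 163, 156 and 148 CPM and in NT24 at 37.6, 30.5 and 43.2 CPM. Its interaction was 4.89 (SE 0.75, edgeR adjusted p = 0.000821) and lay between 4.39 and 5.30 when 1 library was left out.

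Genes with a strong daily change at 28 °C mostly kept its direction after chilling, with a smaller median. Of the 652 genes at least 8-fold higher in NT24 than in NT12, 431 (66.1%) were called dawn-high after chilling, 37 dusk-high and 184 neither, and 177 were again at least 8-fold. Their median log2 difference was 4.05 at 28 °C and 1.98 after chilling. Of the 714 genes at least 8-fold higher in NT12, 505 (70.7%) were called dusk-high after chilling and 5 dawn-high, with medians of -4.07 and -2.45. Over all tested genes, 20.3% and 21.8% were called in these directions after chilling. Genes picked for a large value in some libraries tend to be less extreme in others, and the same was seen the other way round. The 441 genes at least 8-fold higher in CT24 had a median log2 difference of 3.87 after chilling and 2.22 at 28 °C, and the 645 at least 8-fold higher in CT12 had medians of -4.06 and -2.70. The lower group was at low levels in these lists, so the fold sizes are imprecise. Its median was 1.05 CPM in NT12 for the 652 genes and 0.240 CPM in NT24 for the 714. For the 441 it was 0.138 CPM in CT12, and for the 645 it was 0.555 CPM in CT24. Over all tested genes the median level was 8.94 CPM in the chilled libraries.

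For the 5018 dawn-high and the 5379 dusk-high genes, the chilled group was not always the highest of the 4. The highest mean was in CT24 for 2504 dawn-high genes, in NT24 for 2238 and in NT12 for 276. Among dusk-high genes it was in CT12 for 3741, in NT12 for 1338 and in NT24 for 300. With CPM from total counts, CT12 was the highest for 2042 of the dusk-high genes and NT12 for 3071, and CT24 was the highest for 2193 of the dawn-high genes and NT24 for 1934. Over all tested genes the highest group under TMM was NT24 for 7117, CT12 for 6393, NT12 for 5781 and CT24 for 5409. With total counts it was NT12 for 11958, NT24 for 5201, CT24 for 4822 and CT12 for 2719. Under TMM the called direction bars CT12 from being highest among dawn-high genes, and CT24 among dusk-high genes. No such limit holds over all tested genes.

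Under TMM scaling, a part of the transcripts can be said to have been close to equal at dawn and dusk after chilling. For 8867 genes (35.9%) the 95% interval of the difference lay within 2-fold in either direction, and for 3565 (14.4%) it lay within 1.5-fold. Of the 8867, 2296 were nonetheless called under this scaling, with a small difference. Total counts moved the median log2 difference of all genes from 0.03 to 0.34, and intervals were not taken under that scaling. Of the 14303 genes that were not called, 6571 were bounded within 2-fold. For the other uncalled genes the interval reached beyond 2-fold, through its width, the size of the estimate or both.

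Both kinds of identifier took part in the difference. Of the 1350 tested Novel01181-type identifiers, 222 were higher in CT24 and 203 higher in CT12, or 31.5%, against 42.7% of the 23350 identifiers that begin with OsR498G. Their median level was lower, 0.992 CPM against 9.91 CPM. Differences of at least 8-fold were called for 95 of the 1350 (7.04%) and for 991 of the 23350 (4.24%). The sources used here do not say what Novel01181-type identifiers are. Among the 12 larger series of OsR498G identifiers, set apart by the 2 digits after the G, the share called ran from 37.1% of the 1321 tested in series 11 to 44.9% of the 3354 in series 01. Series 11 also had the lowest median level, 4.70 CPM, whose part in this share was not tested.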

How the data were processed

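The authors deposited a table of raw counts per gene, whole numbers with 1 column per library, in which no value was normalized. Of the tools, HISAT2 2.0.4 is known from the submitters' processing notes. No counting tool, build, annotation or strand setting is given in the sources used here, so near-identical, overlapping or antisense genes may share reads. Per the labels, libraries were made from total RNA with a NEBNext Ultra kit.

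The filter was filterByExpr of edgeR, with a minimum count of 10 and a minimum total of 15, leaving 24700 genes with 99.98% of the counts. Counts were scaled by TMM and fitted in R 4.3.3 with edgeR 4.0.16 (quasi-likelihood, 1 mean per group, all 12 libraries, no block, 8 residual degrees of freedom), with Benjamini-Hochberg adjustment over all genes tested. SEs come from the F statistic. CPM used TMM-scaled library sizes; principal components were taken on log2 CPM (prior count 2). The test was tried on simulated data. Named genes were called, separated by library, averaged at least 100 CPM and reached 1 CPM in every library used; the 2 most extreme per direction were taken for each comparison, as identifiers have no names. Lists of clock, DREB and cold, photosynthesis, and starch and sucrose genes had 0 matched members and gave no result. The members and lists were chosen with earlier results of these data known. Same-numbered libraries were not paired by the labels. No library was a duplicate: the chi-square statistic per gene, over genes with at least 20 counts, was at least 32.3 between libraries of a group. Alternatives used limma 3.58.1 and DESeq2 1.42.0.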

Additional observations from a re-analysis of the deposited data

Results flagged for a closer look

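The dawn-dusk difference itself differed between 13 °C and 28 °C, by a test of the interaction, for 5486 genes. The first 4 genes below were named for their interaction, so its size in them was fixed by the choice. OsR498G0306485300.01 and OsR498G0101476300.01 had interactions of -10.75 and -10.26 on the log2 scale and were dusk-high after chilling and dawn-high at 28 °C. OsR498G0203308700.01 and OsR498G0407487300.01 had interactions of 6.16 and 4.89 and had the reverse orders. OsR498G0204548800.01 had an interaction of -4.95, while OsR498G0714482300.01 and OsR498G0100279000.01 had 3.37 and 2.03. All 3 kept their direction with a smaller difference after chilling. They were named with a floor of 1 CPM in the chilled libraries only, which limits the difference after chilling and not the one at 28 °C. They were also picked for the largest differences after chilling, which favours the opposite. Groups of 3 libraries are too small for a test of single outlying libraries.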

How the results depend on the processing

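Of the 9 counts, those of genes called (8310 to 11725 against 10397), called beyond 2-fold by glmTreat, at least 2-fold higher in CT12, and called in the same direction at both temperatures moved by less than 1.5 times under every alternative run. The other 5 moved further under total-count scaling and under no other: 7754 genes higher in CT24, 3534 higher in CT12, 4160 at least 2-fold higher in CT24, 10591 with a time difference that depended on temperature and 1446 called in opposite directions at the 2 temperatures. Total counts moved the class medians to 0.51 under 1 CPM, 0.34 from 1 to 10, 0.32 from 10 to 100 and 0.22 above 100 CPM. Upper-quartile scaling moved those from 1 to 10 and from 10 to 100 CPM to 0.0898 and 0.0691. Cyclic loess, run with limma's voom, moved that under 1 CPM to -0.0142. A constant scaling shifts all genes alike by construction. With 1 library left out, calls numbered 8722 to 11725, and the interaction 4260 to 7124. With the replicate number as a block, 9401 genes were called and 4521 for the interaction. Deviations of same-numbered CT12 and CT24 libraries had r of -0.14, -0.35 and -0.29, against -0.12 to 0.31 for differently numbered ones. With 3 libraries per group, these values cannot decide whether the numbers pair the libraries. The fit on CT12 and CT24 alone called 8310 genes. Weights per group, added after CT12 was seen to vary more, gave 9217. The 8 named genes kept their direction and call under all alternatives run for them. Depth limits genes under 1 CPM, and all 3-against-3 permutation tests stop at p = 0.1.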
